A study of Mus musculus with 18 samples.

Results

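The comparison described here is that of colorectal tissue from C57BL/6 mice with colitis-associated colorectal cancer, between animals labelled wild type and animals labelled RNF138-/-. It takes 6 of the 18 RNA-seq libraries of the series, 3 of each genotype, chosen by their titles and not by any measured value. The other 12 libraries are the same 2 genotypes in chronic colitis without a carcinogen (6 libraries) and in organoids grown from tumor-containing fragments (6 libraries), and they appear only where a difference between models was tested. In both groups, mice aged 6 to 8 weeks were injected intraperitoneally with azoxymethane (AOM, a carcinogen that mutates the colonic epithelium) at 10 mg/kg. After 4 days they drank 2% dextran sulfate sodium (DSS, which injures the epithelium and causes colitis) for 7 days and then plain water for 14 days, and this cycle was given 3 times in all, with tissue taken 4 weeks after the last. The wild-type animals of the treatment description carry the floxed allele, RNF138fl/fl. Which cells lost the gene in the RNF138-/- animals, whether a library is 1 animal, and how much tumor, mucosa and muscle wall a piece of tissue held are not given in the sources used here, so p-values measure the spread between these libraries only.

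RNF138 is an E3 ubiquitin ligase with a RING finger, known from DNA repair and from signaling. The colonic epithelium is renewed from crypt base stem cells that depend on Wnt signaling. Their descendants become absorptive colonocytes, which take up water, salt and butyrate, or secretory cells, chiefly goblet cells that make the mucus layer and enteroendocrine cells that release hormones. Beneath it lie a lamina propria with leukocytes, fibroblasts and vessels, layers of smooth muscle with the enteric nervous system between them, and outside these the mesenteric fat. A piece of bulk tissue mixes all of these, and in bulk RNA fewer cells of a type and less RNA per cell cannot be told apart.

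The 6 libraries held 11514716 to 19608929 gene counts. Values below are CPM, that is counts relative to the size of the library, after TMM scaling, which sets most genes level between libraries. A gene is called when edgeR's quasi-likelihood test gave a Benjamini-Hochberg adjusted p under 0.05 and a change of at least 2-fold. Wild-type library 3 stood apart before any comparison: it was the shallowest, its scaling factor was 0.776 against 0.97 to 1.13 in the others, and on the first principal component (66.4% of the variance) it lay at -129, against -39.6 and -37.8 for the other wild-type libraries and 60.7 to 80.3 for the libraries labelled RNF138-/-. It held 100 CPM of Osr2 where no other library passed 0.816 CPM, and 5.5 CPM of Hoxb13 where the others held 143 to 294 CPM. Both are transcription factors patterned along the colon, and they are named here after their values were seen. Library 3 of those labelled RNF138-/- held 229 CPM of Hoxd13, another such factor, against 1.12 to 19.3 CPM elsewhere. A list of proximal colon genes was highest in wild-type library 3: its sum was 332, 287 and 1466 CPM in wild type and 159, 137 and 138.3 CPM in the libraries labelled RNF138-/-. Of its 5 tested genes 0 were called, all 5 differences were negative and 4 separated the groups, with a median of -2.50, or -1.03 and 2 lower calls without wild-type library 3. The 6 tested distal colon genes had 0 calls and a median of -0.26, with sums of 394, 312 and 52.1 CPM against 221, 170 and 448 CPM. These values stand beside the colonocyte results below, and the part of position along the colon in those results was not tested. Rnf138 itself did not fall: it read 31.7, 31.6 and 25.5 CPM in wild type and 44.8, 50.8 and 51.1 CPM in the libraries labelled RNF138-/- (log2 difference 0.72, SE 0.14, adjusted p = 0.0426 by edgeR, under 2-fold and so not called). A count over the whole gene cannot show a missing exon, and the group is called by its label throughout.

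Of 17752 genes tested, 5.37% were called, 4.83% lower and 0.546% higher in the libraries labelled RNF138-/-. For 44.2% of all genes the 3 values of one group did not overlap the 3 of the other, so that separation of the groups by itself is a common state in these data. Scaling each library to the summed counts of 25 general epithelial genes instead, meant to ask what changed per unit of epithelium, called 2.63% of genes lower and 0.721% higher. The sum is weighted to its most abundant members, such as the keratin Krt8 (41722 to 67368 counts). It thus follows their level as well as the amount of epithelium. Epithelial scaling moved the median of all genes from 0.01 to 0.56 on the log2 scale, and epithelium-scaled values below are to be read against that median. The calls by edgeR's adjusted p depended on single libraries. Without library 1 labelled RNF138-/-, or without library 2 of that label, edgeR called 0 genes, with smallest adjusted p-values of 0.0517 and 0.0565. With the p-value left unadjusted at 0.05 and the fold kept, the first of these fits held 829 higher and 2215 lower genes and the second 562 and 1913, and DESeq2 called 426 and 1804 genes in the first and 217 and 1419 in the second. Without wild-type library 1, 6 genes were called higher and 281 lower, without library 3 labelled RNF138-/- 6 and 103, and without wild-type library 3 168 and 968. In that last fit the unadjusted counts were 626 and 1745 and the DESeq2 counts 352 and 1398. Its lower counts by both measures were the fewest of the fits that leave out a library. The edgeR counts of the lists below moved with the library left out. The colonocyte list had 14 lower genes with all libraries, 3 without wild-type library 1 and 3 without library 3 labelled RNF138-/-. For the smooth muscle list these counts were 17, 16 and 4. A fit with a score of Y-linked genes as covariate, described with the other alternatives, also called 0 genes.

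**Figure D1:**
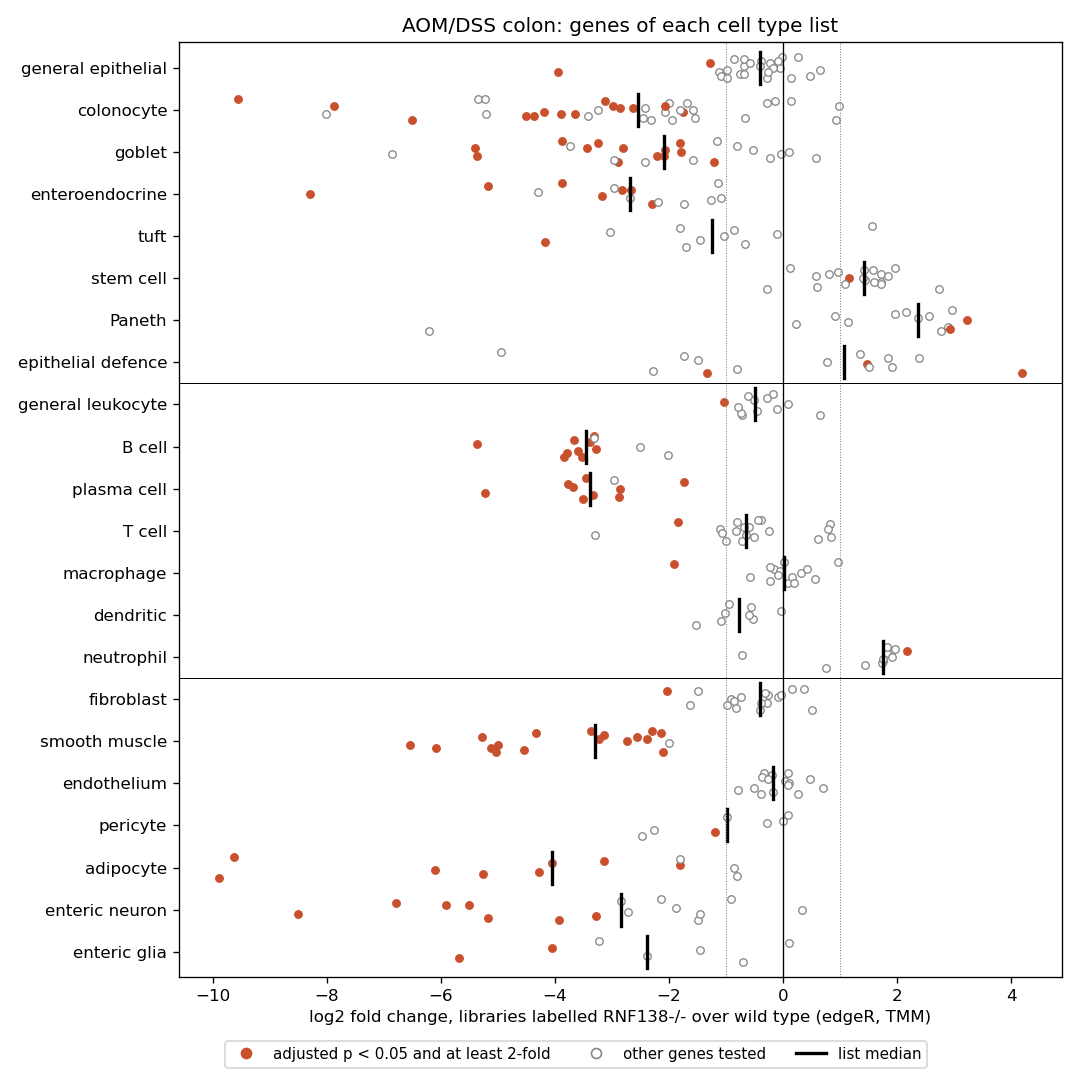
Log2 fold change (x axis, libraries labelled RNF138-/- over wild type, edgeR with TMM) of every tested gene of 22 cell type lists (rows). Filled points are called genes, open points other tested genes, black bars list medians, and height within a row has no meaning. Colonocyte, goblet, B cell, plasma cell, smooth muscle and adipocyte genes lie to the left, while stem cell, Paneth and neutrophil genes lie mostly to the right and are mostly open.

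The general epithelial genes, which mark all lineages, were called in few members. Of 25 tested, 0 rose and 2 fell (0 without wild-type library 1 and 0 without any 1 library labelled RNF138-/-). The differences were negative for 21, and for 13 the libraries labelled RNF138-/- lay under all of wild type. The list median was -0.40 and became 0.19 under epithelial scaling, and the summed level was 18229, 13797 and 24247 CPM in wild type against 13343, 11448 and 11719 CPM in the libraries labelled RNF138-/-, with no overlap between the groups. Epcam, an adhesion molecule of every epithelial cell, read 2149, 1628 and 2581 CPM in wild type and 1813, 1853 and 1591 CPM in the libraries labelled RNF138-/- (log2 difference -0.27, SE 0.24, adjusted p = 0.433). Cdh1, or E-cadherin, differed by -0.22 (SE 0.19, adjusted p = 0.432). The groups overlapped for both genes. The keratin Krt8 read 3023 to 7051 CPM in wild type and 1953 to 2504 CPM in the libraries labelled RNF138-/- without passing the test (log2 difference -1.12, SE 0.35, adjusted p = 0.0863), and 26.9% of the windows of 50 bases along its transcripts were found in other genes as well, chiefly a Krt8 pseudogene.

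The 2 general epithelial genes that fell were both caudal homeobox factors, the transcription factors that set and keep intestinal identity. Cdx2 (GRCm38 chr5:147300805-147307270, minus strand) read 48.8, 105 and 285 CPM in wild type and 16.0, 8.75 and 3.79 CPM in the libraries labelled RNF138-/-. Each library of the first group was above each of the second, and the log2 change was -3.95 (SE 0.81, adjusted p = 0.0446), or -3.02 (SE 0.59, adjusted p = 0.0364) without wild-type library 3. Cdx1 read 169, 193 and 241 CPM against 82.1, 67.1 and 98.9 CPM (log2 change -1.28, SE 0.21, adjusted p = 0.0310). With epithelial scaling Cdx2 stayed called (-3.27, adjusted p = 0.0298) and Cdx1 did not (-0.70, adjusted p = 0.104).

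Colonocyte genes fell as a group by count: 14 of 36 tested were called lower and 0 higher, the list median was -2.55 against 0.01 for all genes, and for 26 of the 36 every wild-type value lay above every value labelled RNF138-/-. Under epithelial scaling 17 fell and the median was -1.93. Without wild-type library 3, 21 fell. The 3 members of the rule for named genes with the largest falls were Cyp2c55, Aqp8 and Car4, and their start regions are shown for that reason. These are the RefSeq promoters of GRCm38.p6, each 300 bases on the plus strand from 250 bases before the start to 50 after it. Capitals mark the core letters TTTATNG, on either strand, that caudal homeobox factors bind.
Cyp2c55, chr19:39006769-39007068: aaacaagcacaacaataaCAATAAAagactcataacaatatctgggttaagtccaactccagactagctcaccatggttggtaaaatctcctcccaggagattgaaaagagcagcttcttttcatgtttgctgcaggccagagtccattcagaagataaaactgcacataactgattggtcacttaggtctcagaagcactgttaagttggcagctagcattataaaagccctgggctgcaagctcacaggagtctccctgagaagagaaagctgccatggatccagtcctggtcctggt
Aqp8, chr7:123462044-123462343: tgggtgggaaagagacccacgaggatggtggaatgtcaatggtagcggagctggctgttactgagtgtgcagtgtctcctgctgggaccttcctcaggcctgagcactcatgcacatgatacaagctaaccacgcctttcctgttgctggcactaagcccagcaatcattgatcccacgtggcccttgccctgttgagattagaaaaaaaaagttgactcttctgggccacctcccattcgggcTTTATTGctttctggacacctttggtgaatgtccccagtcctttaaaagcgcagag
Car4, chr11:84957504-84957803: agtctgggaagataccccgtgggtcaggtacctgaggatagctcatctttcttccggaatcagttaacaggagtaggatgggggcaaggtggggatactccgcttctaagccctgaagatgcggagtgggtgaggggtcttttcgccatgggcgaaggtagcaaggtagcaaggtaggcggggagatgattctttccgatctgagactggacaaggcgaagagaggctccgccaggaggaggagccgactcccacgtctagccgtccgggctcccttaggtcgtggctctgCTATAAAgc

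Each of the 3 windows holds 1 match to these letters, and such a match is a description of the sequence only. Over the colonocyte list, 31 of 37 genes have a RefSeq promoter entry and 8 of the 31 (25.8%) hold TTTATNG on either strand, against 12.5% of 27025 genes with an entry and 10.9% of all 32851 promoters of this length. The letters CAAAGTNCA, a core of the sites of HNF4 factors, were in none of the 31 and in 1.41% of all promoters. The short letters TTTATNG overlap with TATA boxes when they lie just before a start.

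Aqp8 (GRCm38 chr7:123462291-123468004), a water channel of surface colonocytes, read 231, 355 and 391 CPM in wild type and 0.78, 0.59 and 2.78 CPM in the libraries labelled RNF138-/-. The log2 change was -7.87 (SE 0.68, adjusted p = 0.0168 by edgeR) and -7.70 without wild-type library 3, so this gene did not depend on that library. Car4, a membrane carbonic anhydrase, read 485, 462 and 1498 CPM against 5.16, 1.13 and 20.5 CPM (log2 change -6.51, SE 1.20, adjusted p = 0.0377). Cyp2c55, a cytochrome P450 of the arachidonic acid pathway, read 41.8, 101 and 2451 CPM against 0.42, 0.59 and 2.38 CPM. Its log2 change of -9.56 (SE 2.07, adjusted p = 0.0486) was carried in part by wild-type library 3 and was -5.95 (SE 0.73, adjusted p = 0.0132) without it.

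Transporters of colonocytes took part. Slc26a2, a sulfate transporter, read 694, 569 and 711 CPM in wild type and 93.3, 55.7 and 124 CPM in the libraries labelled RNF138-/- (log2 change -2.86, SE 0.32, adjusted p = 0.0198). The butyrate carriers of the apical and basolateral face, Slc5a8 and Slc16a1, fell by 3.90 (SE 0.76, adjusted p = 0.0406) and 2.07 (SE 0.38, adjusted p = 0.0378) on the log2 scale. Slc26a3, the chloride exchanger whose loss causes chloride diarrhea, missed the threshold: it read 510, 443 and 518 CPM against 3.84, 0.59 and 35.1 CPM (log2 difference -5.21, SE 1.35, adjusted p = 0.0623), a separation of the groups with a wide spread among the libraries labelled RNF138-/-. The wider list of butyrate use and ketogenesis had 4 of 15 genes lower and 0 higher, and Hadh and Bdh1, enzymes of fatty acid oxidation and ketone metabolism, were the other two. These 2 were not called with epithelial scaling, and they were under 2-fold without wild-type library 3 (log2 differences -0.86 and -0.90). The list had 2 lower genes with epithelial scaling, 3 without wild-type library 3, 1 without wild-type library 2, and 0 without wild-type library 1 or without any 1 library labelled RNF138-/-. Over all 286 solute carriers tested, 24 fell and 3 rose (9.44% called), and 9 of 41 cytochrome P450 genes fell and 0 rose (22% called).

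Other called members of the list were spread over several functions. Muc3, a membrane mucin of the brush border, read 2502, 1410 and 4608 CPM in wild type and 98.2, 49.1 and 321 CPM in the libraries labelled RNF138-/- (log2 change -4.19, SE 0.84, adjusted p = 0.0426). Selenbp1, a selenium-binding oxidase, read 370, 287 and 1088 CPM against 18.8, 17.2 and 48.8 CPM (log2 change -4.36, SE 0.71, adjusted p = 0.0313). Guca2a, the guanylin precursor that sets fluid secretion, fell by 4.51 (SE 0.87) and Cdhr2, a protocadherin that links microvilli, by 2.98 (SE 0.59) on the log2 scale. A short list of genes of small intestinal absorption had 3 of 10 lower: Fabp2, Apob and Rbp2, carriers of fatty acids, lipoproteins and retinol. The count was 1 without wild-type library 1, 2 without wild-type library 2, 5 without wild-type library 3 and 0 without any 1 library labelled RNF138-/-. Fabp2 read 26.2, 101 and 1335 CPM against 0.96, 0.454 and 1.42 CPM. Its change was -9.01 with wild-type library 3 and -6.07 without it.

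Goblet cell genes fell too, 13 of 25 tested against 0 that rose, with a list median of -2.09 (-1.48 and 8 falls with epithelial scaling). It had 13 falls without wild-type library 3, 6 without wild-type library 2 and 4 without library 3 labelled RNF138-/-. Muc2, the gel-forming mucin of the colon, read 3434, 6740 and 15658 CPM in wild type and 1104, 989 and 1378 CPM in the libraries labelled RNF138-/-. The groups did not overlap and the log2 change was -2.90 (SE 0.58, adjusted p = 0.0426). Clca1, a secreted mucus protease, read 4876, 11250 and 17915 CPM against 583, 65.4 and 159 CPM (log2 change -5.40, SE 1.01, adjusted p = 0.0381). Zg16, a lectin of the mucus that binds bacteria, read 3028, 3227 and 5656 CPM against 86.2, 6.67 and 196 CPM (log2 change -5.37, SE 1.17, adjusted p = 0.0486, and 0.0525 without wild-type library 3). Fcgbp, a mucus scaffold protein, fell by 3.88 (SE 0.66). Atoh1, the transcription factor that commits progenitors to the secretory fate, read 41.3, 68.0 and 59.5 CPM against 13.1, 14.9 and 21 CPM (log2 change -1.78, SE 0.26, adjusted p = 0.0278). It was no longer called with epithelial scaling (-1.24, adjusted p = 0.0833), and nor were Agr2, Hepacam2, Bcas1 and Pdia5.

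Enteroendocrine genes had 7 of 15 tested lower and 0 higher, with a median of -2.69. The count was 1 without wild-type library 1, 2 without wild-type library 2 and 1 without library 3 labelled RNF138-/-. Chga, chromogranin A of the hormone granules, read 55.1, 62.2 and 124 CPM in wild type and 7.5, 16.6 and 25.0 CPM in the libraries labelled RNF138-/- (log2 change -2.29, SE 0.51, adjusted p = 0.0495, 0.0573 without wild-type library 3 and 0.0762 with epithelial scaling). Sst, somatostatin of D cells, read 4.74, 7.63 and 43.6 CPM against 0.06, 0 and 0.101 CPM, and Gcg, proglucagon of L cells, 16.3, 38.6 and 32.2 CPM against 0.12, 0.227 and 2.02 CPM. Tph1, which makes serotonin in enterochromaffin cells, fell by 3.17 (SE 0.66, adjusted p = 0.0450). Neurod1, a transcription factor of these cells, was at 1.06 to 2.92 CPM against 0.06 to 0.405 CPM and missed the threshold (log2 difference -2.69, SE 0.64, adjusted p = 0.0550). Of the tuft cell list 1 of 10 genes fell, Rgs13 (log2 change -4.18, SE 0.64, adjusted p = 0.0290). The defining tuft genes Dclk1, Trpm5 and Pou2f3 were not called, with log2 differences of -1.69, -3.03 and -1.46. The only positive difference of the list was that of Avil, 1.56, and its groups did not overlap. Avil had 1012, 1074 and 196 counts in wild type against 1886, 4473 and 2649. DESeq2 called 1 gene of the list higher and 8 lower, and edgeR without wild-type library 3 called 1 and 1. The summed list per 1000 general epithelial counts was 8.14, 12.4 and 10.3 in wild type against 11.9, 24.5 and 16.1, with overlap.

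**Figure D2:**
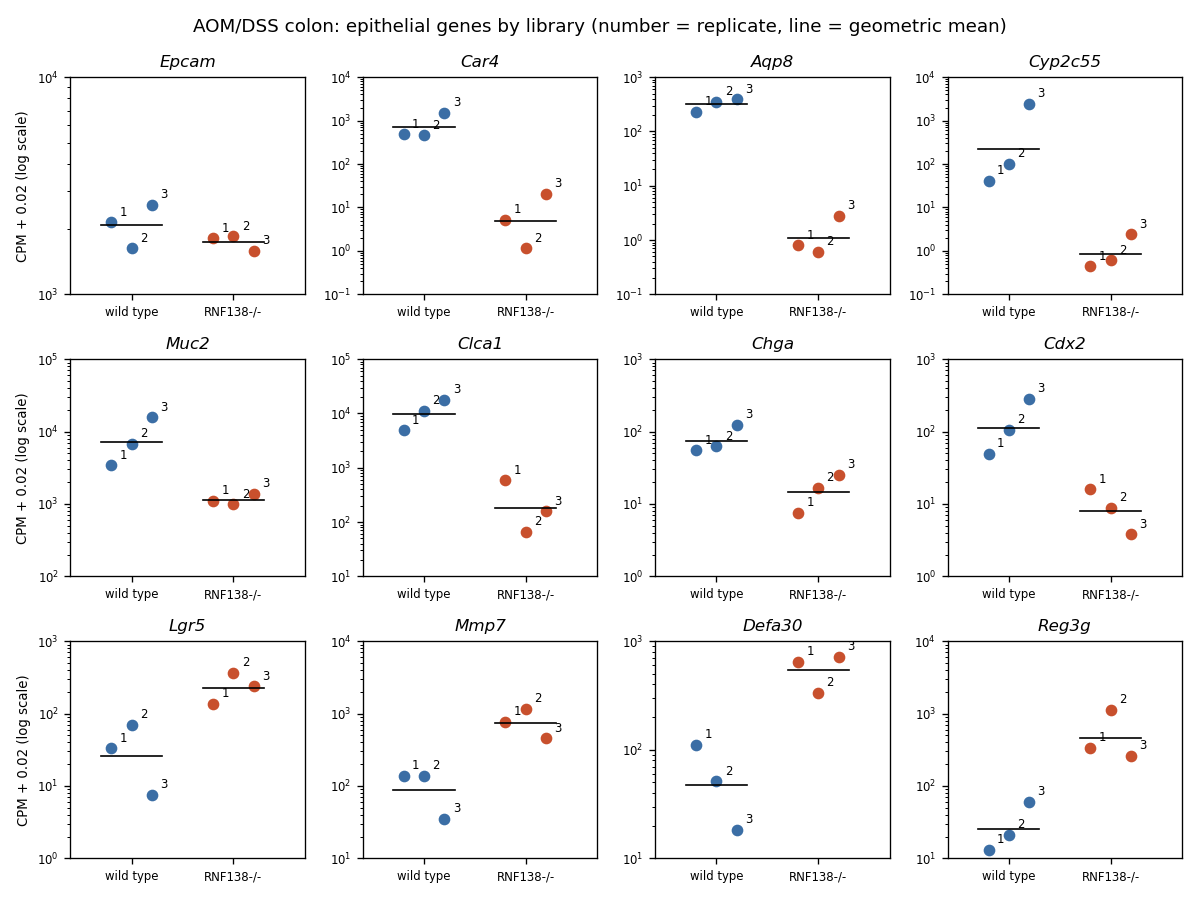
CPM plus 0.02 on a log axis of 12 epithelial genes in the 6 AOM/DSS libraries. Each point is a library with its replicate number, and the line is the geometric mean of the group, with the groups named by their labels. Aqp8, Cyp2c55 and Car4 separate most, Epcam overlaps between the groups, and wild-type library 3 is highest for Cyp2c55 and Cdx2 and lowest for Lgr5.

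At the other end of the lineage, genes of stem cells read higher with few calls. Of 19 tested, 18 had positive log2 differences and for 14 all 3 libraries labelled RNF138-/- lay above wild type, but only Slc12a2, a basolateral chloride cotransporter of crypt base cells, was called (340, 421 and 247 CPM against 643, 779 and 817 CPM, log2 change 1.15, SE 0.24, adjusted p = 0.0447). Lgr5, the receptor that marks crypt base stem cells, read 33.1, 70.0 and 7.52 CPM in wild type and 135, 369 and 239 CPM in the libraries labelled RNF138-/- (log2 difference 2.74, SE 0.78, adjusted p = 0.0730). Smoc2, a matrix protein of the same cells, read 113, 127 and 36.3 CPM against 318, 399 and 363 CPM (log2 difference 1.96, adjusted p = 0.0508). The low value in each case was wild-type library 3. Without it 7 of the 19 genes were called higher, Slc12a2 not among them (0.98, under 2-fold). Without wild-type library 1 or without any 1 library labelled RNF138-/- 0 were called. With epithelial scaling 1 gene of the list was called higher, but Slc12a2 missed the threshold (adjusted p = 0.0570). Axin2, a feedback target of Wnt signaling, rose by 1.24 without wild-type library 3 (SE 0.15, adjusted p = 0.0126), against a difference of 1.72 with it (SE 0.67, adjusted p = 0.128).

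The list of 15 Wnt feedback genes, which partly shares its members with the stem cell list, had 0 calls while all 15 differences were positive and 14 separated the groups, with a median of 1.57. Notum, a secreted Wnt deacylase, read 158, 127 and 4.60 CPM in wild type and 267, 241 and 259 CPM in the libraries labelled RNF138-/-, and Axin2 read 175, 216 and 26.8 CPM against 460, 446 and 471 CPM. In both genes wild-type libraries 1 and 2 lay within 2-fold of each other and library 3 far under them. Without library 3, 5 of the 15 were called. Of 25 proliferation genes 0 were called, 24 had positive differences and the median was 0.52. Mki67, the common proliferation marker, read 170, 209 and 213 CPM against 257, 220 and 220 CPM (log2 difference 0.24, adjusted p = 0.307), and Mcm2, a subunit of the replicative helicase, 44.8, 41.0 and 21.7 CPM against 87.1, 72.0 and 67.0 CPM (log2 difference 1.07, adjusted p = 0.0642). Genes of the fetal-like repair state, such as Ly6a and Clu, had 0 calls among 12 and a median of 0.10.

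Paneth cell genes, which encode antimicrobial products that the mouse colon normally makes little of, leaned the same way. Of 13 tested, 2 rose and 0 fell, 12 differences were positive and 1 was negative, the median was 2.36, and 5 rose with epithelial scaling and 7 without wild-type library 3. Without wild-type library 1, without wild-type library 2 or without any 1 library labelled RNF138-/-, 0 were called. Mmp7, the metalloproteinase that activates mouse defensins, read 139, 139 and 35.3 CPM in wild type and 773, 1170 and 457 CPM in the libraries labelled RNF138-/- (log2 change 2.94, SE 0.61, adjusted p = 0.0449). Defa30, a defensin, read 112, 51.1 and 18.3 CPM against 648, 334 and 719 CPM (log2 change 3.23, SE 0.68, adjusted p = 0.0463). For Defa30 52.4% of 50-base windows also occur in other defensin transcripts, so its reads cannot be assigned with certainty. Lyz1, the Paneth lysozyme, read 588, 499 and 72.2 CPM against 2344, 3543 and 1983 CPM and missed the threshold (log2 difference 2.76, SE 0.74, adjusted p = 0.0663), but was past it without wild-type library 3 (2.28, SE 0.30, adjusted p = 0.0160). Reg4, another marker on the list, did not differ in this way, with 409, 615 and 43.3 CPM against 392, 397 and 454 CPM (log2 difference 0.22, adjusted p = 0.862). The negative member was Mptx1, a pentraxin, with 261, 5744 and 785 CPM in wild type and 75.5, 3.58 and 12.9 CPM in the libraries labelled RNF138-/-, and the groups did not overlap (log2 difference -6.21, SE 1.7, adjusted p = 0.0691). It was called lower by DESeq2 and with no filter on low counts. Over all 14 defensin genes tested, 3 rose and 0 fell, with a median of 2.53.

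Among other genes of epithelial defence 2 of 14 rose and 1 fell, and 0 were called without wild-type library 1 or without any 1 library labelled RNF138-/-. Reg3g, a C-type lectin that kills Gram-positive bacteria, read 13.2, 21.2 and 60.8 CPM in wild type and 334, 1128 and 263 CPM in the libraries labelled RNF138-/- (log2 change 4.19, SE 0.84, adjusted p = 0.0426). Its relative Reg3b overlapped between the groups, with 4.67, 22.1 and 152 CPM against 414, 433 and 83.1 CPM. Saa3, an acute phase serum amyloid, rose by 1.46 (SE 0.27, adjusted p = 0.0381). Saa1, of the same family, ran the other way, with 1286, 418 and 935 CPM in wild type and 312, 47.3 and 182 CPM in the libraries labelled RNF138-/-, which did not overlap (log2 difference -2.29, SE 0.72, adjusted p = 0.0875). Saa2 also read lower, with overlapping groups (log2 difference -1.73, adjusted p = 0.134). Of the 14 differences on this list 8 were positive and 6 negative. Pigr, the receptor that carries IgA across the epithelium, fell from 3322, 2803 and 4392 CPM to 1573, 1189 and 1388 CPM (log2 change -1.34, SE 0.26, adjusted p = 0.0399), and this was not called with epithelial scaling (-0.74, adjusted p = 0.0830). The M cell list had 2 of 7 genes lower, Spib and Tnfrsf11a, and 0 higher. Tnfrsf11a, the receptor RANK, fell by 1.18 (SE 0.22, adjusted p = 0.0370), and was not called without wild-type library 3 (-0.94) or with epithelial scaling (-0.58, adjusted p = 0.147). Spib, a factor of M cells that B cells also use, fell by 3.92 (SE 0.44, adjusted p = 0.0198) while the other defining M cell genes, Gp2 and Ccl20, differed by -0.75 and -0.13 with overlapping groups.

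Outside the epithelium the tissue layers differed unevenly. Smooth muscle genes fell almost without exception: 17 of 18 tested were lower and 0 higher, all 18 separated the groups, and the median was -3.30. Under epithelial scaling 14 fell with a median of -2.62, and without wild-type library 3 again 17 fell. Myh11, the smooth muscle myosin (GRCm38 chr16:14194535-14291372, minus strand), read 956, 953 and 2724 CPM in wild type and 39.9, 43.4 and 58.0 CPM in the libraries labelled RNF138-/- (log2 change -5.03, SE 0.54, adjusted p = 0.0193). Des, the muscle intermediate filament desmin, read 471, 947 and 2557 CPM against 6.00, 5.72 and 30.8 CPM (log2 change -6.54, SE 1.08, adjusted p = 0.0317). Cnn1, the calponin of contractile cells, read 332, 560 and 1382 CPM against 6.42, 5.26 and 21.8 CPM. The summed level of the list was 4081 to 13272 CPM in wild type and 351 to 559 CPM in the other group. The part of the share of muscle wall in each piece in these results, and in those of the nerve, fat and epithelial genes, was not tested.

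Nerve and fat genes fell as well. Of 15 enteric neuron genes 7 fell and 0 rose, with a median of -2.84, and 4 fell without wild-type library 1 and 2 without library 3 labelled RNF138-/-. Vip, a transmitter of inhibitory motor neurons, read 27.9, 25.8 and 21.3 CPM in wild type and 0, 0.227 and 0.405 CPM in the libraries labelled RNF138-/- (log2 change -6.79, SE 0.67, adjusted p = 0.0171). Prph, the filament of peripheral neurons, read 11.2, 6.27 and 20.9 CPM against 0.18, 0.181 and 0.253 CPM. Of 7 glial genes 2 fell, Sox10 and Cdh19.

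Adipocyte genes had 8 of 11 tested lower and 0 higher, with a median of -4.05, and 2 lower without library 3 labelled RNF138-/-. Adipoq, the fat cell hormone adiponectin, read 12.4, 6.81 and 2.02 CPM in wild type and had 0 counts in all 3 libraries labelled RNF138-/-, at least 45.3-fold lower against a floor of 3 counts per library. Cfd, complement factor D or adipsin, read 50.2, 40.3 and 8.64 CPM against 0.12, 0 and 0 CPM. Wild-type library 3 was the lowest of its group for both genes, but the highest for Cidec (20.4, 12.2 and 20.9 CPM) and Plin4 (18.9, 18.7 and 38.0 CPM). Cidec and Plin4, proteins of the lipid droplet, fell by 4.05 (SE 0.39, adjusted p = 0.0168) and 4.28 (SE 0.41, adjusted p = 0.0170). Of the genes of the mesothelium, the outermost layer, Upk3b was called lower (1.27, 1.64 and 8.19 CPM against 0, 0 and 0.0506 CPM), and Msln, which tumor cells also make, read 13.4, 19.9 and 11.7 CPM against 11.2, 30.8 and 29.0 CPM with no call. Pancreatic acinar transcripts were found in wild-type library 2 (593 CPM of the protease Ctrb1) and at 38.3 CPM in wild-type library 3, against at most 0.152 CPM in the other 4.

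Fibroblast and vessel genes, in contrast, showed little. In the fibroblast list 1 of 18 genes fell, Dpt, a matrix protein (72.3, 85.5 and 123 CPM against 21.4, 15.9 and 30.9 CPM, log2 change -2.04, SE 0.31, adjusted p = 0.0286). Dcn, decorin, read 302, 238 and 255 CPM against 200, 223 and 237 CPM (log2 difference -0.27, SE 0.16, adjusted p = 0.261). The collagen Col1a1 read 128, 296 and 100 CPM against 140, 301 and 306 CPM, and the list median was -0.40, or 0.12 with epithelial scaling. Of 15 endothelial genes 0 were called at a median of -0.18 (0.40 with epithelial scaling). Pecam1, a junction protein of endothelium, read 55.1, 58.5 and 56.8 CPM against 32.3, 47.6 and 50.2 CPM. Among 7 pericyte genes 1 fell, the channel subunit Abcc9 (log2 change -1.20, SE 0.16, adjusted p = 0.0259), which was not called with epithelial scaling (-0.61, adjusted p = 0.140).

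**Figure D3:**
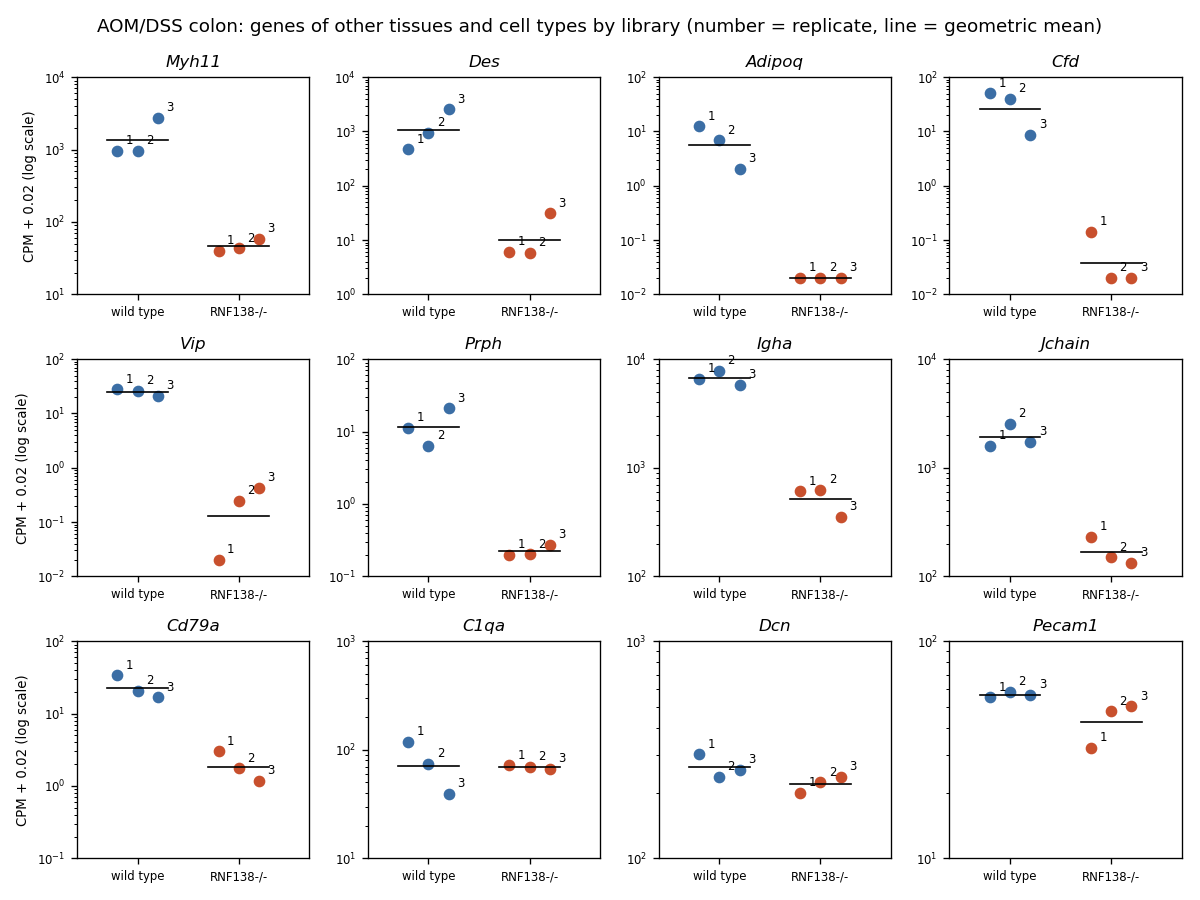
CPM plus 0.02 on a log axis of 12 genes of muscle, fat, nerve, plasma cells, B cells, macrophages, fibroblasts and endothelium in the 6 AOM/DSS libraries. Each point is a library with its replicate number, and the line is the geometric mean of the group, with the groups named by their labels. The groups lie far apart for every gene but C1qa, which overlaps, and Dcn and Pecam1, which lie close together.

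The immune compartment changed in its antibody-making part. B cell genes had 9 of 12 tested lower, 0 higher and a median of -3.46, and plasma cell genes 9 of 10 lower, 0 higher and a median of -3.39. All 12 and all 10 separated the groups. The counts were 8 and 7 with epithelial scaling, 3 and 7 without wild-type library 1, 8 and 6 without wild-type library 2, and 0 and 3 without library 3 labelled RNF138-/- (12 and 10 had negative differences in each of these 3 fits without a library). Cd79a, a chain of the B cell receptor complex, read 33.7, 20.5 and 16.8 CPM in wild type and 3, 1.72 and 1.16 CPM in the libraries labelled RNF138-/- (log2 change -3.60, SE 0.45, adjusted p = 0.0234). Cr2 and Cxcr5, receptors of follicular B cells, fell by 3.79 (SE 0.80, adjusted p = 0.0471) and 3.67 (SE 0.56, adjusted p = 0.0290). Igha, the constant region of IgA (GRCm38 chr12:113254830-113260236, minus strand), read 6608, 7853 and 5818 CPM against 605, 626 and 353 CPM (log2 change -3.68, SE 0.33, adjusted p = 0.0168). Jchain, which joins IgA into dimers, read 1603, 2528 and 1726 CPM against 230, 150 and 133 CPM (log2 change -3.51, SE 0.32, adjusted p = 0.0168). Over 177 immunoglobulin genes 61 fell and 0 rose (34.5%), and together they held 1.07% to 2.28% of the counts in wild type and 0.103% to 0.283% in the other group. Variable segments share sequence, and their single values are uncertain. For Mzb1, a chaperone of plasma cells on the same list, 53.5% of windows also occur in another transcript.

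Other leukocytes were called in few members. General leukocyte genes had 1 of 12 lower, Cd52, at a median of -0.48. With epithelial scaling the median became 0.07 and Cd52 was not called. Ptprc, the antigen CD45 of all leukocytes, read 78.5, 54.0 and 58.2 CPM in wild type and 47.0, 39.4 and 28.8 CPM in the libraries labelled RNF138-/- (log2 difference -0.73, SE 0.23, adjusted p = 0.0891). In the T cell list 1 of 19 genes fell, the costimulatory receptor Cd28 (log2 change -1.85, SE 0.26, adjusted p = 0.0272, and 0.0810 with epithelial scaling), while the CD3 chains overlapped: Cd3e read 3.11, 1.53 and 2.80 CPM against 1.56, 2.31 and 0.607 CPM. With epithelial scaling 1 gene of the list was lower, not Cd28. The largest difference of the list, -3.30, was that of Cd8a, which was not called. It had 51, 31 and 82 counts in wild type against 13, 7 and 7. Of 9 cytotoxic genes and 8 dendritic cell genes 0 were called, at medians of -1.09 and -0.77. Macrophage genes had a median of 0.01 and 1 of 15 lower, the scavenger receptor Cd163 (log2 change -1.91, SE 0.33, adjusted p = 0.0343, and 0.0898 with epithelial scaling). C1qa, a complement chain made by tissue macrophages, read 119, 74.3 and 39.5 CPM against 72.1, 69.3 and 66.7 CPM.

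Most neutrophil genes read higher, with 11 of the 14 genes of the list tested. In 10 of 11 the log2 difference was positive and 8 separated the groups, with a median of 1.76, but 1 was called, Trem1, an activating receptor of myeloid cells (2.83, 1.96 and 1.23 CPM against 10.6, 11.2 and 5.81 CPM, log2 change 2.17, SE 0.41, adjusted p = 0.0381). The 1 negative member was Ly6g, a surface marker of neutrophils (log2 difference -0.71). It had 2013, 820 and 55 counts in wild type and 1258, 213 and 656 counts in the libraries labelled RNF138-/-, with overlap. S100a8 and S100a9, the calprotectin subunits, were just outside the threshold. S100a9 read 50.1, 31.7 and 24.2 CPM in wild type and 174, 116 and 70.8 CPM in the libraries labelled RNF138-/- (log2 difference 1.76, SE 0.40, adjusted p = 0.0508). With epithelial scaling 5 of the 11 were called higher. The count was 2 without wild-type library 3, 1 without library 3 labelled RNF138-/- and 0 without any other library. Hdc, the histidine decarboxylase that makes histamine, rose from 4.03, 5.61 and 1.79 CPM to 17.0, 14.2 and 15.0 CPM (log2 change 1.99, SE 0.40, adjusted p = 0.0426), while the mast cell protease Cpa3 and receptor chain Fcer1a had no call and overlapped between the groups. Prg2, a granule protein of eosinophils, fell (4.74, 2.73 and 0.897 CPM against 0.36, 0.181 and 0.303 CPM), and was not called with epithelial scaling (adjusted p = 0.0639).

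Interferon-stimulated genes had 4 of 17 lower and 0 higher at a median of -2.72. The count was 8 with epithelial scaling, 0 without wild-type library 1, 7 without wild-type library 2, 6 without wild-type library 3 and 0 without any 1 library labelled RNF138-/-. Isg15, a ubiquitin-like protein, read 54.5, 28.4 and 216 CPM in wild type and 11.4, 4.99 and 6.07 CPM in the libraries labelled RNF138-/- (log2 change -3.74, SE 0.83, adjusted p = 0.0495). Irf7, the factor that amplifies the interferon response, read 224, 168 and 940 CPM against 57.2, 29.8 and 41.3 CPM (log2 change -3.38, SE 0.72, adjusted p = 0.0478, and -2.19 without wild-type library 3, which was highest for both genes). Cxcl9, a chemokine that follows interferon gamma, did not go with them, with 7.00, 2.89 and 7.63 CPM against 8.22, 10.1 and 27.7 CPM (log2 difference 1.40, adjusted p = 0.144). Class II antigen presentation genes had 0 of 9 called at a median of -0.61. In the lists of the unfolded protein response, cholesterol synthesis and the circadian clock 1 of 16, 0 of 16 and 1 of 15 were called, all lower: Edem1, which sorts misfolded glycoproteins, and the clock repressor Nr1d1. Neither was called with epithelial scaling (log2 differences -0.44 and -0.91), without wild-type library 2 or without any 1 library labelled RNF138-/-. Edem1 was also under 2-fold without wild-type library 3 (-0.84), and Nr1d1 was not called without wild-type library 1.

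Of the 10 largest falls by the naming rule, Adipoq, Cfd, Cyp2c55, Fabp2, Sst and Aqp8 are given above, and the other four are on no list. Ctxn3, a small membrane protein, was at 2.33, 9.7 and 29.2 CPM in wild type against 0 counts, at least 88.1-fold lower with a floor of 3 counts per library. Apol10a, an apolipoprotein L gene, read 20.6, 51.2 and 801 CPM against 0.42, 0.136 and 0.202 CPM (log2 change -10.18, SE 1.92, adjusted p = 0.0386, and -7.16 without wild-type library 3, which was its highest). Btnl1, a butyrophilin-like protein by which gut epithelium holds intraepithelial T cells, read 12.2, 27.7 and 147 CPM in wild type and 0.06, 0.0454 and 0.354 CPM in the libraries labelled RNF138-/- (log2 change -8.58, SE 1.36, adjusted p = 0.0310). Chrna3, a nicotinic receptor subunit of autonomic neurons, was at 3.25, 2.40 and 11.6 CPM against 0 counts, at least 36.8-fold lower with the same floor. These values say nothing of which cells the genes came from. Of the higher genes outside the lists, Alox12e, an epidermal lipoxygenase, read 2.69, 4.14 and 0.897 CPM against 28.4, 27.6 and 13.4 CPM (log2 change 3.12, SE 0.56, adjusted p = 0.0358). Strc, known as the stereocilin of the inner ear, read 3.61, 5.83 and 2.47 CPM against 34.9, 13.0 and 28.1 CPM (log2 change 2.65, SE 0.47). The pseudogene Cbx3-ps8 also rose (2.83, SE 0.39), but 34.9% of its windows occur in other transcripts, chiefly Cbx3.

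Summing each list per 1000 general epithelial counts puts epithelial lineage and tissue content on 1 scale. Colonocyte counts were 1358, 1153 and 2185 per 1000 in wild type and 609, 354 and 530 in the libraries labelled RNF138-/-. Goblet counts were 976, 2541 and 2443 against 292, 280 and 403. Both lineages were thus lower within the epithelial signal in every library, whereas the general leukocyte sum was 27.8, 29.0 and 13.7 against 27.6, 30.8 and 25.0. The stem cell sum was 122, 175 and 53.8 against 313, 441 and 365. Smooth muscle counts were 224, 418 and 547 against 26.3, 43.7 and 47.7, and plasma cell counts 680, 1225 and 451 against 117, 107 and 64.4. The Paneth sums overlapped (118, 542 and 49.4 against 482, 674 and 437), since in wild-type library 2 a single gene, Mptx1, held 5744 CPM.

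**Figure D4:**
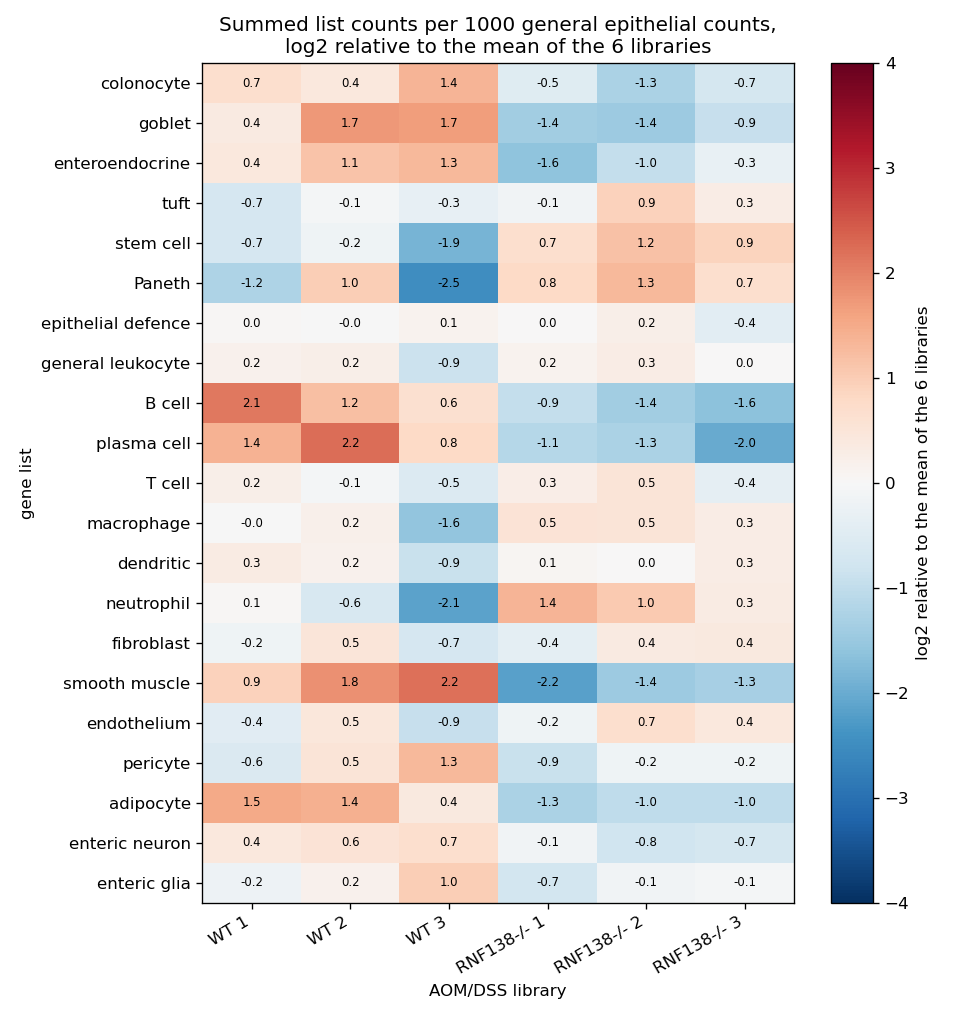
Summed counts of each gene list (rows) per 1000 general epithelial counts in each of the 6 AOM/DSS libraries (columns), as log2 relative to the mean of the 6 libraries, written in each cell and shown as color (red higher, blue lower). Smooth muscle runs from 0.91 to 2.20 in wild type and from -2.18 to -1.32 in the libraries labelled RNF138-/-, and the stem cell list runs the other way, from -1.87 to -0.17 against 0.67 to 1.17.

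Whether a called gene is one that cultured epithelium also makes was read from the organoid libraries. Of the 857 genes that fell, 457 (53.3%) had at least 1 CPM in all 6 organoid libraries, 272 (31.7%) were under 1 CPM in all 6 and 128 were mixed. As a share of the genes tested in each class, 3.57% of 12812 organoid-detected genes and 8.88% of 3062 undetected genes fell. Of the 97 genes that rose, 55 were detected, 23 undetected and 19 mixed. The organoid libraries are not purely epithelial: the fibroblast gene Dcn averaged 736 CPM in the wild-type organoids and 3000 CPM in those labelled RNF138-/-, and differentiated colonocyte genes such as Aqp8 were near 1 CPM in them (1.39 and 1.44 CPM on average). Detection there thus sorts genes only roughly into epithelial and other.

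The difference between genotypes was then compared with that in the other models, which use other libraries throughout. In a joint fit of all 18 libraries, the genotype difference in AOM/DSS tissue differed from that in DSS tissue for 11.9% of 19390 genes and from that in organoids for 18.9%. The first share stands for 2315 genes, which became 1399 without wild-type library 3 and 1440 without library 2 labelled RNF138-/-. Aqp8 differed by -7.56 on the log2 scale from DSS (adjusted p = 0.000612) and by -7.90 from organoids (adjusted p = 0.000328). Cdx2 differed by -4.12 (adjusted p = 0.00338) and -2.68 (adjusted p = 0.0208). For Cdx2 the organoids themselves read 8.23 CPM in wild type and 3.50 CPM in the other group, a change of the same sign (log2 change -1.24, adjusted p = 0.0318). Muc2 differed from DSS (-2.60, adjusted p = 0.0437) and missed the threshold against organoids (-2.09, adjusted p = 0.0735).

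By list, of 36 colonocyte genes 22 passed the test of this difference against DSS and 26 against organoids. The smooth muscle list had 18 and 17 of 18, and the plasma cell list 9 and 2 of 10, the latter near the share over all genes. Of the 10 plasma cell genes, 0 reached 1 CPM in every organoid library. In the organoids the Wnt feedback list ran the other way, with a median of -1.48 in those labelled RNF138-/- over wild type. Of its 15 members 13 passed the test of the difference, against 18.9% of all genes. The Paneth list had a median of -2.36 over 11 tested genes there, and Lyz1 differed between the models by 5.90 (adjusted p = 0.00168). The organoid groups also differ in Y-linked transcripts and Xist, and the part of that in the organoid values was not tested.

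**Figure D5:**
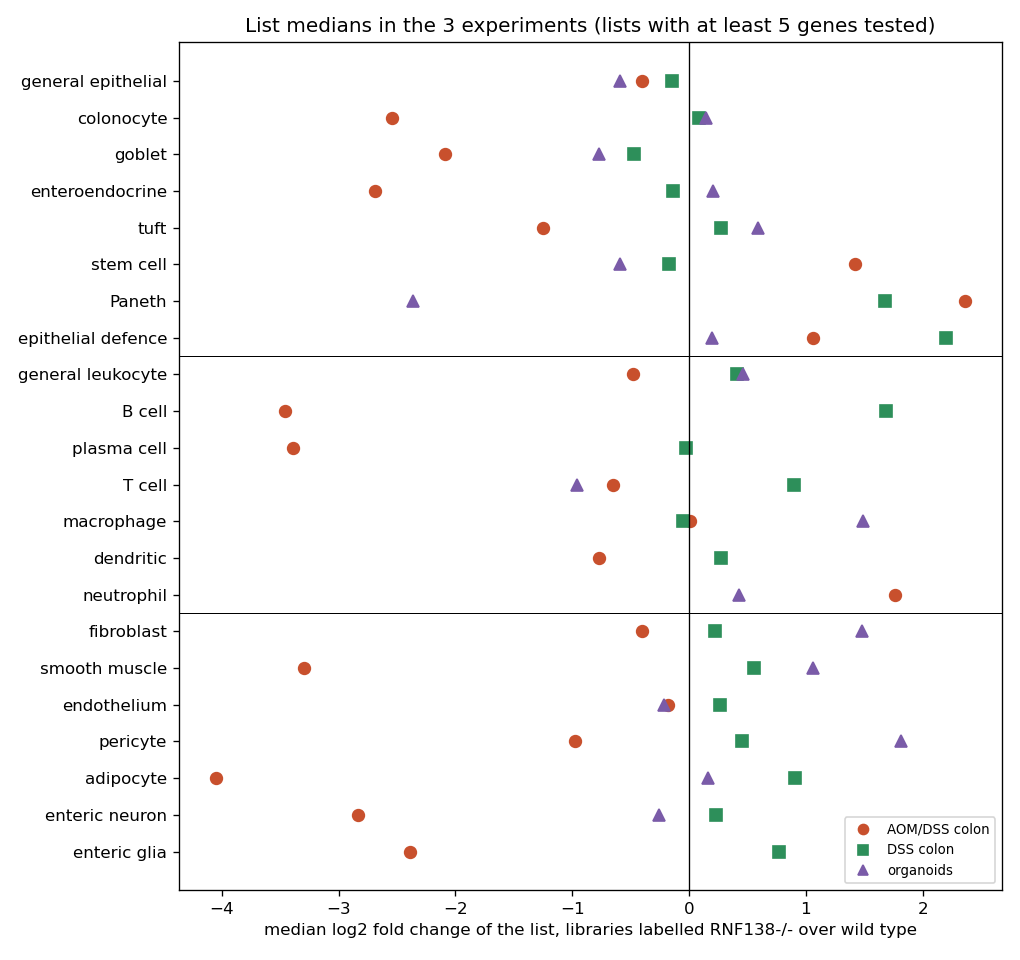
Median log2 fold change of each gene list (x axis, libraries labelled RNF138-/- over wild type) in AOM/DSS colon (circles), DSS colon (squares) and organoids (triangles), for lists with at least 5 genes tested in that model. The colonocyte median is -2.55 in AOM/DSS, 0.08 in DSS and 0.15 in organoids, the smooth muscle median is -3.30, 0.55 and 1.06, and the Paneth median is 2.36 in AOM/DSS and -2.36 in organoids.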

How the data were processed

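RNA from flash-frozen colorectal tissue was made into TruSeq libraries. The authors deposited 1 table of raw read counts per gene for all libraries. The submitters' processing notes name STAR 2.6.1d, HTSeq 0.11.2, DESeq2 and mm10 without saying which made which file, and the strand setting is not given in the sources used here, so overlapping genes cannot be told apart. Columns of the authors' own comparisons (log2 fold changes and p-values) were not used. Groups were taken from the titles. Counts of the 6 AOM/DSS libraries (11514716 to 19608929) were filtered with edgeR's filterByExpr, scaled by TMM and tested by edgeR 4.0.16 quasi-likelihood in R 4.3.3, with Benjamini-Hochberg adjustment over all 17752 genes. Differences between models came from 1 fit of 18 libraries. Depth sets the floor: a library with 0 counts of a gene allows up to 3, which covers counting error only. Alternatives were RLE factors, total counts, epithelial scaling, DESeq2 1.42.0, other filters, thinning, covariates and leaving out each library.

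The members and the 46 gene lists were chosen with earlier results of these data known. Named genes were Rnf138, the first 3 genes of each cell type list, up to 4 called members per list with at least 5 CPM and the largest change, and the 10 largest changes in each direction without overlap and with at least 5 CPM. The promoters shown are those of the 3 colonocyte genes so named with the largest falls. Agr2, Atoh1, Avil, Bcas1, Cd163, Cd8a, Cdh19, Cdhr2, Cxcl9, Cxcr5, Hepacam2, Hoxb13, Hoxd13, Ly6g, Mcm2, Mki67, Mptx1, Muc3, Notum, Osr2, Pdia5, Saa1, Saa2, Selenbp1, Slc26a2 and Smoc2 lie outside that rule and were named after their values were seen. Gene positions are from GENCODE M21 on GRCm38, the assembly that mm10 names.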

Additional observations from a re-analysis of the deposited data

Results flagged for a closer look

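The genotype difference in AOM/DSS tissue was not the same as that in the other models, by the interaction term of the joint edgeR fit. It differed from DSS tissue for 2315 genes and from organoids for 3673 genes. These are 11.9% and 18.9% of the 19390 genes tested. Within the lists, the number of members past that test against DSS and against organoids was 22 and 26 of 36 for colonocytes, 10 and 6 of 25 for goblet cells, 7 and 11 of 19 for stem cells and 2 and 10 of 13 for Paneth cells. For the tissue around the epithelium it was 18 and 17 of 18 for smooth muscle, 9 and 5 of 11 for adipocytes and 11 and 5 of 15 for enteric neurons. For the immune lists it was 12 and 2 of 12 for B cells and 9 and 2 of 10 for plasma cells. The Paneth count against DSS and the goblet, B cell and plasma cell counts against organoids are near the share over all genes and are not results about those lists. Of the 12 B cell genes 0, and of the 18 smooth muscle genes 14, had 1 CPM or more in every organoid library.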

How the results depend on the processing

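The counts of higher and lower genes were 97 and 857 as reported. They were 95 and 818 with RLE factors, 113 and 600 with total counts only, 107 and 864 without immunoglobulin genes and 105 and 800 after thinning to the lowest total. Epithelial scaling gave 128 and 466, DESeq2 562 and 2099, no filter on low counts 226 and 1415 and 1 fit of all 18 libraries 729 and 2105. With a score of Y-linked genes as covariate edgeR called 0 and 0 (406 and 1221 at an unadjusted p under 0.05, smallest adjusted p 0.11, DESeq2 not run). The score was 5.66, 5.73 and 5.97 in wild type and 5.04, 5.64 and 4.54 in the libraries labelled RNF138-/-. As the groups did not overlap, this fit cannot separate the score from the label. Leaving out each library in turn gave 0 to 168 higher and 0 to 968 lower genes, and with DESeq2, an alternative chosen after seeing the data, 217 to 899 and 1398 to 2136. The other alternatives added were also chosen after seeing the data: testing the organoid-detected genes alone gave 28 and 316, and an unadjusted p under 0.05 gave 762 and 2151. The replicate block gave 141 and 938, sharing 57 and 671 calls with the reported ones. The correlations between groups of deviations from the group means were 0.040, 0.204 and 0.071 for same-numbered libraries. For differently numbered ones they ran from -0.140 to 0.047. Values from 3 libraries a group cannot decide whether the numbers pair the samples. The genes that differed from DSS numbered 2315, 1262 with epithelial scaling and 1399 to 3009 leaving out each library. Those that differed from organoids numbered 3673, 2651 with epithelial scaling and 2983 to 3818 leaving out each library. The cause of these shifts was not tested. All 86 called named genes that an alternative could fit kept their direction under every alternative, while 72 were past both thresholds with epithelial scaling, 79 without wild-type library 3, 32 without wild-type library 1, 13 without library 3 labelled RNF138-/- and 0 without library 1 or 2 labelled RNF138-/-. Wild-type library 3, with 11514716 counts, limits what low genes can show.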

Other observations

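All 6 AOM/DSS libraries carried Y-linked transcripts, but not evenly, and these genes are named after their values were seen. Eif2s3y read 95.9, 68.5 and 95.4 CPM in wild type and 5.04, 102 and 0.91 CPM in the libraries labelled RNF138-/-. Ddx3y read 38.2, 60.5 and 69.4 CPM against 82.4, 20.6 and 75.7 CPM, so the library with the highest Eif2s3y of its group was the one with the lowest Ddx3y. Kdm5d did not vary in this way, with 55.4, 58.6 and 78.4 CPM against 54.6, 58.6 and 51.5 CPM. Hoxd13 and Hoxb13, the posterior homeobox genes, did not move together either: Hoxd13 was at 229 CPM in library 3 labelled RNF138-/-, where Hoxb13 was at 143 CPM, close to the 143 CPM of library 2, where Hoxd13 was at 7.3 CPM.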
